A study of Mus musculus with 15 samples.

Results

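The immediate early and dissociation-responsive genes described here are 31 genes chosen by name, and each was found by its symbol among the 54108 gene symbols of the table. They were measured in retrogradely labeled cutaneous sensory neurons of the dorsal root ganglia (DRG), sorted from 15 female C57BL/6J mice aged 8 to 12 weeks. SCI mice (n = 5) had a T10 laminectomy with a compression clip closed on the cord, sham mice (n = 5) had the laminectomy alone, and naïve mice (n = 5) had no spinal surgery. All 15 mice had the tracer WGA-488 injected into the skin of both hindpaws. Ganglia L2 to L6 were taken 4 days after surgery, below the level of the lesion, and each mouse gave 1 library of about 3000 sorted cells. Before sorting, the ganglia of every mouse were digested at 37 °C for 10 min in papain and for 20 min in collagenase with dispase, and cells then waited on ice. As aftercare, operated mice had gentamicin once and saline for 4 days, and SCI mice had their bladders emptied by hand each day. Only the naïve mice lived in groups, with SCI and sham mice in single cages. Surgery, its aftercare and housing therefore cannot be told apart in a comparison with naïve mice.

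Immediate early genes are transcribed within minutes of a stimulus from factors that are already in the cell, chiefly SRF with its partners downstream of the MAP kinases and CREB downstream of calcium and cAMP. Their first products are transcription factors of the AP-1 (Fos and Jun), EGR and NR4A families, which then drive slower genes, and feedback proteins that end the signal. In sensory neurons they mark firing, growth factor signals and injury, and warm enzymatic digestion is well known to switch the same genes on in cells isolated for sequencing. All 3 groups here went through the same digestion, and no undigested ganglion was measured in these libraries, so a level present in the mouse and a level that arose at digestion cannot be told apart.

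The values are CPM, the reads of a gene divided by 1 number per library and not by gene length, although the deposited columns are headed RPKM, so that 1 read was worth 0.141 to 0.791 CPM. Libraries held 1318958 to 7451180 reads, with medians of 3691493 in SCI, 5803911 in sham and 2527518 in naïve mice. The labels give 25 to 30 M sequenced reads per sample, and where the other reads were lost is not given in the sources used. Depth here therefore means the reads recovered from the deposited values, which need not follow the amount of sequencing. Naïve mice gave both the shallowest library, naïve 1, and the deepest, naïve 5. The markers of nociceptors fixed for this work were abundant, with 10 of 10 above a mean of 100 CPM, and their summed level ranged over 3252 to 3924 CPM in SCI, 2787 to 4086 in sham and 2978 to 5638 in naïve mice. Other cells were present in the RNA too: 7 of 8 satellite glia markers and 4 of 7 Schwann cell markers were above a mean of 100 CPM. So were 3 of 6 markers of large myelinated neurons, 2 of 7 of fibroblasts and 2 of 10 of endothelial and mural cells. The fibroblast markers summed to 360 to 1837 CPM over the 15 libraries. Only 1 of 12 macrophage markers was above 10 CPM, and the 5 hemoglobin and erythrocyte genes summed to at most 6.92 CPM in any library.

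The levels of the family ranged widely, with transcription factors at both ends. Of the 31 genes, 10 had a mean above 100 CPM over the 15 libraries, as did 3359 of all symbols, 17 lay between 10 and 100 CPM, 1 lay between 1 and 10 CPM and 3 lay below 1 CPM. Together they took 0.272 to 0.334% of the reads in SCI, 0.263 to 0.3% in sham and 0.256 to 0.415% in naïve libraries. By mean level Egr1 came first with 396 CPM, which is rank 198 among all symbols, followed by Nr4a1 (389), Fos (362), Jun (311) and Fosb (308). Per kilobase of exon, which is the scale on which genes can be compared, Fos led with 154 CPM per kb, ahead of Nr4a1 (111), Jun (97.4), Junb (90.6) and Egr1 (88.2). By mean CPM the lowest was Jund, with 17 reads in all 15 libraries, and per kilobase Egr4 (0.23) and Jund (0.231) were lowest. The 7 genes Fosl1, Jun, Junb, Jund, Dusp1, Zfp36 and Csrnp1 share exonic bases with a gene on the opposite strand, and the strand setting of the counting is not given in the sources used here.

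**Figure D1:**
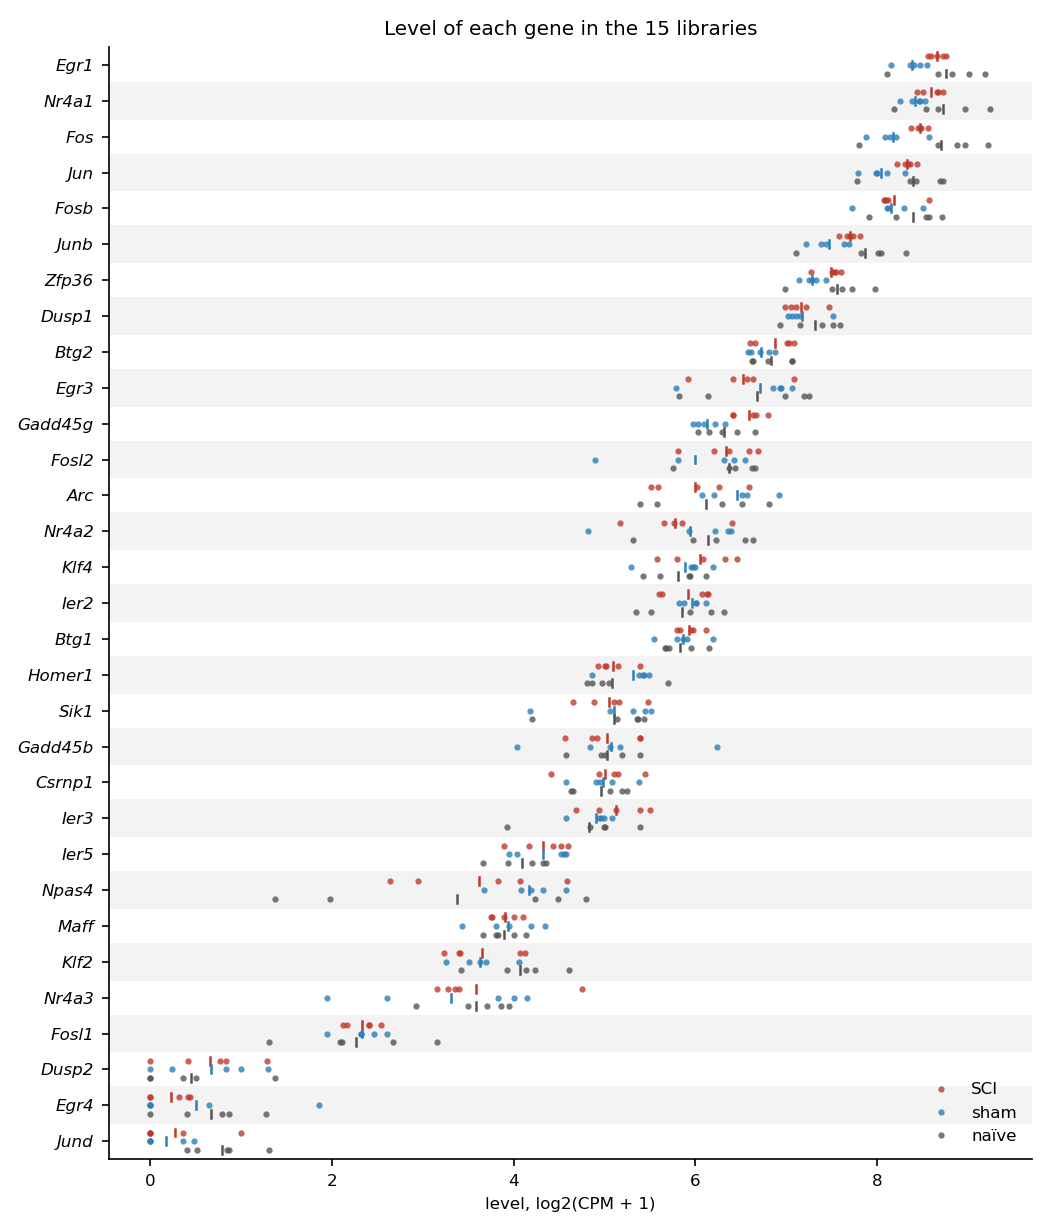
Level of each of the 31 genes on a log2(CPM + 1) axis, ordered by mean level. Each point is 1 library (SCI red, sham blue, naïve grey, 5 each) and the short bar is the group mean; Egr1, Nr4a1 and Fos stand at the top, Dusp2, Egr4 and Jund at the bottom, and for most genes the 3 rows of points overlap.

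Among the AP-1 genes, Fos (chr12:85473890-85477273 on GRCm38, plus strand, 2352 exonic bases), whose protein pairs with Jun to form AP-1, had 357, 329.9, 376, 349 and 356 CPM in SCI mice 1 to 5, against 234, 381, 295, 271 and 282 CPM in sham mice 1 to 5 and 472, 406, 501, 596 and 223 CPM in naïve mice 1 to 5. The 5 SCI values lay close together, the naïve values held both the highest and the lowest of the 15, and all 3 groups overlapped. Junb (chr8:84974484-84978718, minus strand), a Jun family member that often restrains Jun, had 212, 203, 224, 207 and 191 CPM in SCI mice 1 to 5, against 148, 206, 172, 198 and 166 CPM in sham mice 1 to 5 and 257, 226, 263, 319 and 137 CPM in naïve mice 1 to 5. As for Fos, naïve 4 was highest and naïve 5 lowest.

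Jun (chr4:95049034-95052222, minus strand), the other core part of AP-1, had 329, 317, 348, 323 and 297 CPM in SCI mice 1 to 5, against 221, 317, 275, 254 and 253 CPM in sham mice 1 to 5 and 327, 344, 413, 424 and 219 CPM in naïve mice 1 to 5. Again naïve 4 was highest and naïve 5 lowest. Fosb, which gives a shorter stable protein on repeated stimulation, had 274, 271, 379, 278 and 269 CPM in SCI mice 1 to 5, against 277, 211, 276, 314 and 363 CPM in sham mice 1 to 5 and 240.4, 379, 421, 371 and 296 CPM in naïve mice 1 to 5. SCI 3 stood apart from the other 4 SCI mice for Fosb, and the groups overlapped. Of the Fos-related genes, Fosl2 ranged over 28.9 to 103 CPM and Fosl1 over 1.46 to 7.91 CPM. Jund, the least inducible Jun, had 0.283, 0, 0.989, 0 and 0 CPM in SCI mice 1 to 5, against 0.284, 0, 0.393, 0 and 0 CPM in sham mice 1 to 5 and 0.791, 0.324, 0.827, 1.46 and 0.422 CPM in naïve mice 1 to 5, with at most 3 reads in a library. It had 0 reads in 6 libraries, where a count of 0 allows up to 3 reads, and this covers counting error only. Its exons and those of Egr4 had the highest GC content of the 31 genes (67.1 and 68.2%), and the part of GC content in these low levels was not tested. Jund also shares exonic bases with Gm11175 on the opposite strand, and the part of that overlap in its low count was not tested.

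Of the zinc finger factors of the EGR family, Egr1 (chr18:34859823-34864984, plus strand) had 424, 384, 432, 403 and 376 CPM in SCI mice 1 to 5, against 283, 374, 354, 328 and 339 CPM in sham mice 1 to 5 and 407, 454, 585, 517 and 275 CPM in naïve mice 1 to 5. Every SCI value was above every sham value, the nearest pair being 376 CPM in SCI 5 and 374 CPM in sham 2. Egr3, which muscle spindles need to form, had 84.6, 98.0, 93.9, 135 and 59.3 CPM in SCI mice 1 to 5, against 133, 54.1, 122, 115 and 121 CPM in sham mice 1 to 5 and 55.3, 151, 146, 69.4 and 126 CPM in naïve mice 1 to 5. Low values of Egr3 fell in naïve 1, naïve 4, sham 2 and SCI 5, and the groups overlapped. Egr4 gave 36 reads in all and had 0 reads in 6 libraries.

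The NR4A genes encode orphan nuclear receptors that act without a known ligand. Nr4a1 (chr15:101254269-101274795, plus strand) had 406, 362, 404, 421 and 347 CPM in SCI mice 1 to 5, against 304, 334, 355, 352 and 368 CPM in sham mice 1 to 5 and 372, 502, 606, 407 and 289.6 CPM in naïve mice 1 to 5. The 2 highest values were those of naïve 3 and naïve 2, and the lowest was that of naïve 5. Nr4a2, known for its part in dopamine neurons, had 49.5, 84.0, 57.0, 53.5 and 34.9 CPM in SCI mice 1 to 5, against 59.8, 27.2, 73.2, 82.8 and 80.8 CPM in sham mice 1 to 5 and 38.7, 98.3, 92.6, 73.8 and 61.9 CPM in naïve mice 1 to 5. Its values spread widely in each group, and the groups overlapped. Nr4a3 was lower, at 2.85 to 26.0 CPM.

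Npas4, a factor induced by calcium entry in neurons and hardly by other signals, had 15.8, 6.68, 23.1, 13.2 and 5.23 CPM in SCI mice 1 to 5, against 17.2, 11.8, 15.9, 19.0 and 22.8 CPM in sham mice 1 to 5 and 1.58, 17.8, 21.5, 2.92 and 26.7 CPM in naïve mice 1 to 5. In naïve 1 and naïve 4 these values rested on 2 and 4 reads, against 190 reads in naïve 5. Arc, which governs the removal of AMPA receptors from synapses, had 75.5, 63.9, 47.1, 95.6 and 44.7 CPM in SCI mice 1 to 5, against 90.6, 66.3, 72.8, 93.6 and 119.8 CPM in sham mice 1 to 5 and 46.7, 77.5, 112, 40.9 and 90.1 CPM in naïve mice 1 to 5. Arc was highest in sham 5 and naïve 3 and lowest in naïve 4, and the groups overlapped. Homer1, a scaffold of glutamate receptors whose short form is induced by activity, had 31.4, 41.0, 29.3, 34.4 and 31.1 CPM in SCI mice 1 to 5, against 40.6, 28.1, 42.0, 42.2 and 43.8 CPM in sham mice 1 to 5 and 26.9, 30.5, 28.1, 32.2 and 51.0 CPM in naïve mice 1 to 5. The table counts the gene as a whole, so the short and long forms of Homer1 were not separated.

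The remaining genes are mostly feedback and stress genes. Zfp36 (tristetraprolin), which speeds the decay of immediate early mRNAs, had 194, 183, 180.2, 186 and 154 CPM in SCI mice 1 to 5, against 140.5, 152, 155, 172 and 159.6 CPM in sham mice 1 to 5 and 181, 195, 251, 210.5 and 126 CPM in naïve mice 1 to 5. Naïve 3 was highest and naïve 5 lowest. Gadd45g (chr13:51846678-51848468, plus strand), a stress-induced gene, had 84.0, 98.8, 110.1, 101 and 84.4 CPM in SCI mice 1 to 5, against 61.8, 64.2, 73.6, 79.3 and 67.2 CPM in sham mice 1 to 5 and 77.5, 70.1, 87.2, 100.1 and 64.3 CPM in naïve mice 1 to 5. All 5 SCI values of Gadd45g lay above all 5 sham values, while the naïve values overlapped both groups. Dusp1, a nuclear MAP kinase phosphatase, ranged over 121 to 191 CPM, and its relative Dusp2 did not exceed 1.58 CPM. The antiproliferative genes Btg2 and Btg1 ranged over 94.3 to 134 CPM and 45.5 to 72.1 CPM.

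Klf4 and Klf2, zinc finger factors, ranged over 38.2 to 87.1 CPM and 8.37 to 23.4 CPM, and Maff, a small Maf factor, over 9.76 to 19.3 CPM. Ier2, Ier3 and Ier5, immediate early response genes, ranged over 39.5 to 78.6 CPM, 14.2 to 44.4 CPM and 11.7 to 23.1 CPM. Gadd45b, the relative of Gadd45g, ranged over 15.4 to 74.4 CPM, Csrnp1, a nuclear protein gene, over 20.2 to 42.7 CPM and Sik1, a kinase induced through CREB that restrains CREB's coactivators, over 17.1 to 44.7 CPM.

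The spread between mice of 1 group was larger than counting error for 27 of the 28 genes whose mean reached 1 CPM, the exception being Fosl1. The SD of log2(CPM + 1) within a group had a median over these 28 genes of 0.25 in SCI, 0.27 in sham and 0.39 in naïve mice, against 0.18, 0.23 and 0.34 over all 16000 genes tested. Dusp2, Egr4 and Jund, below 1 CPM, were left out by this filter. The naïve group had the largest SD for 17 of the 28 genes, and it also spanned the widest range of depth.

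The comparison of SCI with sham mice asks what the cord injury adds to a laminectomy. The daily bladder emptying of SCI mice cannot be told apart from the injury in it. Gadd45g had the smallest p of the family, at 95.6 ± 11.3 CPM in SCI and 69.2 ± 7.17 CPM in sham mice (SD, n = 5 each; log2 difference 0.46 ± 0.12 SE, adjusted p = 0.897 by limma). This did not pass the adjusted threshold of 0.05. By limma none of the 28 genes tested passed, as none of the 16000 genes did (0%). At an unadjusted p under 0.05, 1 of the 28 was higher and 0 were lower, against 0.65% higher and 3.24% lower over all genes. In either direction that count was 8 when only SCI and sham mice were fitted, 6 without naïve 5, 1 to 3 without any other single library, and 3 without the 2 shallowest libraries or with thinned reads. Over all 16000 genes these counts were 1439, 895, 349 to 2376, 1184 and 759, in that order, and 623 as reported. By edgeR 0 of all genes passed and by DESeq2 4 did, none of them among the 28. SCI and sham values did not overlap for 2 of the 28 genes, Egr1 and Gadd45g, against 1.51% of all genes. For Egr1 the difference did not pass (log2 difference 0.27 ± 0.15 SE, adjusted p = 0.897 by limma). Depth differed between these groups too, with a median of 3691493 reads in SCI and 5803911 in sham libraries. Egr1 was among the genes that fell with depth (slope -0.25). Sham 2, whose Egr1 value lay nearest to the SCI values, had the fewest reads of its group (2563330). The median log2 difference was 0.03 over the 28 genes (16 above 0) and -0.07 over all genes, and with median-ratio scaling these were 0.10 (23 above 0) and 0.00. Under the alternatives run, the difference of Gadd45g lay between 0.40, with log2 reads added to the fit, and 0.55, by edgeR.

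The comparison of SCI with naïve mice spans injury, laminectomy, aftercare and housing at once. Fos averaged 354 ± 16.6 CPM in SCI and 439 ± 139 CPM in naïve mice (SD, n = 5 each; log2 difference -0.24 ± 0.19 SE, adjusted p = 0.898 by limma). Gadd45g averaged 95.6 ± 11.3 CPM in SCI and 79.8 ± 14.2 CPM in naïve mice (log2 difference 0.27 ± 0.12 SE, adjusted p = 0.898 by limma). No gene of the 28 and none of the 16000 passed the adjusted threshold (0%) by limma, nor by edgeR or DESeq2. At an unadjusted p under 0.05, 1 of the 28 (Gadd45g) was higher and 0 were lower, against 3.73% and 0.794% of all genes, and in either direction 6 were past it without naïve 5, 0 to 1 without any other single library and 4 without the 2 shallowest libraries. Over all 16000 genes the counts in those fits were 2578, 512 to 888 and 447, and 724 as reported. No gene of the 28 had SCI and naïve values that did not overlap, against 0.462% of all genes. The median log2 difference was -0.02 over the 28 genes and 0.08 over all genes, and -0.09 and 0.01 with median-ratio scaling.

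The comparison of sham with naïve mice spans the laminectomy, its aftercare and single housing. Fos averaged 293 ± 54.3 CPM in sham and 439 ± 139 CPM in naïve mice (SD, n = 5 each; log2 difference -0.53 ± 0.19 SE, adjusted p = 0.3 by limma). Egr1 (-0.38 ± 0.15), Jun (-0.36 ± 0.14) and Junb (-0.39 ± 0.16) had log2 differences of the same sign, each with an adjusted p of 0.3 by limma. None of the 28 genes and none of the 16000 (0%) passed the adjusted threshold by limma or edgeR, while DESeq2, whose filter left an adjusted p for 1111 genes and 6 of the family, called 233 genes, 0% of them higher in sham mice, and 5 of the 6 (Fos, Jun, Junb, Egr1 and Nr4a1, each with an adjusted p of 0.0486; Fosb had 0.0527). At an unadjusted p under 0.05, 0 of the 28 were higher and 4 were lower, against 13.4% and 3.19% of all genes. In either direction that count was 11 with median-ratio scaling, 9 with TMM, 10 by edgeR or DESeq2, 9 without naïve 5 and 1 to 5 without any other single library. Over all genes it was 2060 with median-ratio scaling, 2085 with TMM, 1719 by edgeR and 1818 by DESeq2. Without naïve 5 it was 5650 of all 16000 genes, without any other single library 1171 to 5362, and as reported 2651. None of the 28 had sham and naïve values that did not overlap, against 0.644% of all genes. The median log2 difference was -0.06 over the 28 genes and 0.17 over all genes, and with median-ratio scaling these medians were -0.20 and 0.04.

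A single mouse and the depth of the libraries both bore on this comparison. Without naïve 5, the deepest library, limma called 1752 of the 16000 genes, 69.2% of them higher in sham mice. It called 6 of the 28 genes of the family, all 6 lower in sham mice. These were Fos at -0.76 (adjusted p = 0.0276 by limma), Junb at -0.58, Egr1 at -0.54, Jun at -0.51, Nr4a1 at -0.44 and Zfp36 at -0.42. With log2 reads added to the fit, by contrast, the difference was -0.07 for Fos, -0.04 for Junb, -0.08 for Jun and -0.13 for Egr1, each with an adjusted p that rounded to 1 by limma. Under that fit 27 of the 28 genes lay below 0, where 14 did without the added term. Their median was -0.15, against 0.01 over all genes. At an unadjusted p under 0.05 by limma, 3 of the 28 and 319 of all 16000 genes passed, and 0 passed after adjustment. Markers of several cell types lay on the same side and others on the opposite side. At an unadjusted p under 0.05, 7 of 10 nociceptor, 4 of 8 satellite glia and 3 of 7 Schwann cell markers were lower in sham mice and none higher, while 2 of 8 endothelial and mural and 1 of 7 fibroblast markers were higher and none lower, none of them past the adjusted threshold (limma). Over all genes, 13.4% were higher and 3.19% lower in sham mice at an unadjusted p under 0.05 (limma). The differences were above 0 for 8 of 8 endothelial and mural and 11 of 12 macrophage markers, as for 12343 of all 16000 genes. The part of these cells in the values of Fos, Jun, Junb and Egr1 was not tested. In bulk RNA of sorted cells, fewer cells of a type and less RNA per cell cannot be told apart.

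**Figure D2:**
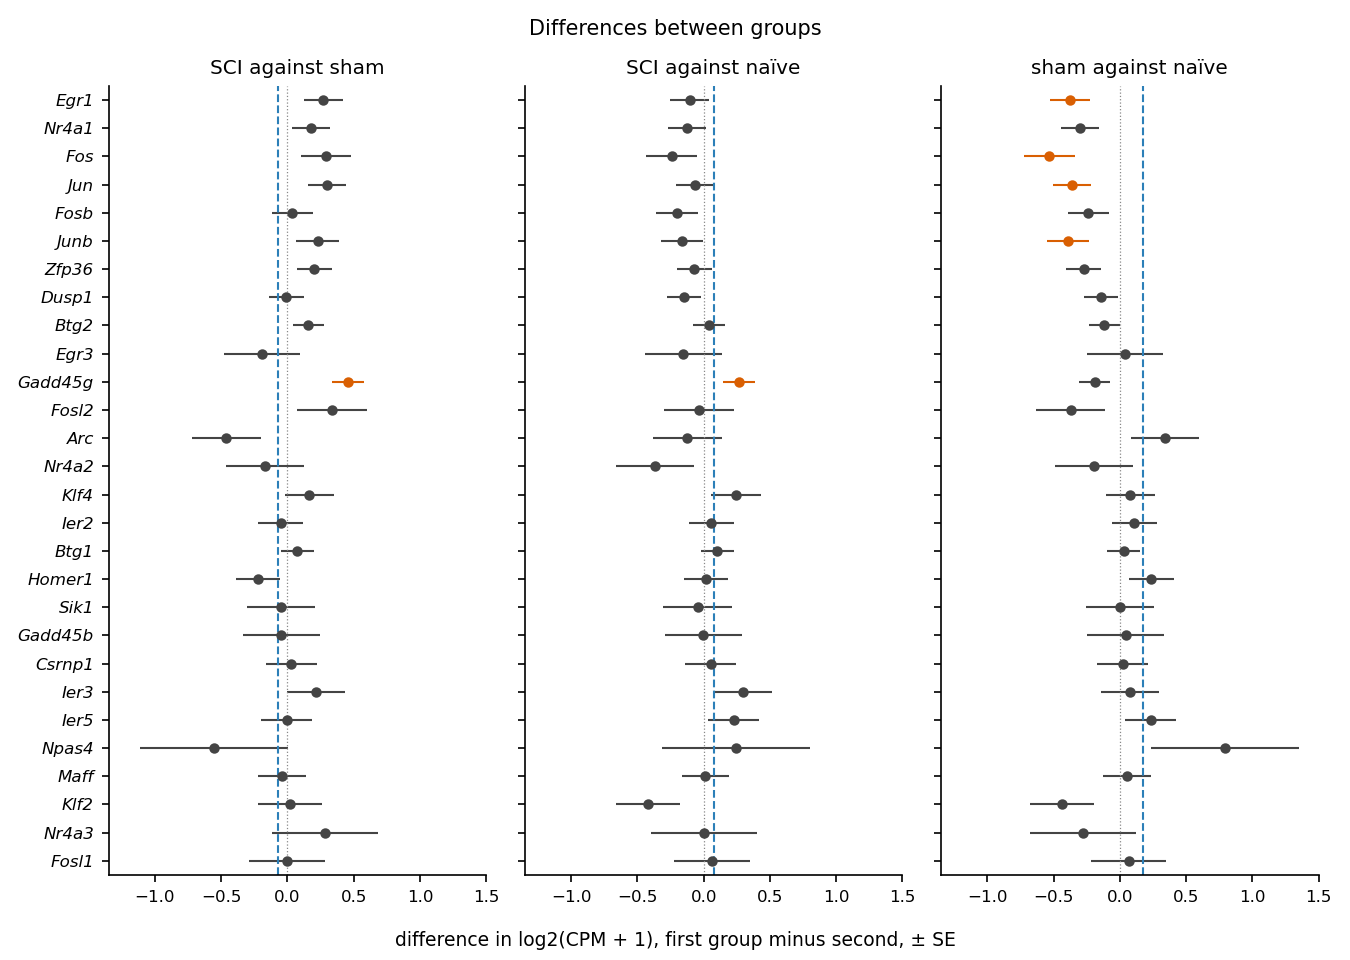
Log2 difference (± SE, limma) of each of the 28 genes whose mean reached 1 CPM, ordered by mean level, in the 3 comparisons. Orange points have an unadjusted p under 0.05 (Gadd45g in both SCI comparisons; Egr1, Fos, Jun and Junb between sham and naïve mice), none passed after adjustment, and the dashed blue line is the median of all 16000 genes.

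Of the 28 genes, 9 rose and 4 fell with the number of reads in the library, and 15 did neither past the threshold. The slope, fitted by limma with group as a term, is the log2 change in level for each doubling of reads. Fos fell with depth at -0.46 ± 0.06, adjusted p = 7.62e-06, Junb at -0.36 ± 0.06, adjusted p = 2.26e-04, Jun at -0.28 ± 0.06, adjusted p = 0.00198 and Egr1 at -0.25 ± 0.07, adjusted p = 0.0125 (± SE, limma). Another 9 genes rose, led by Npas4 (1.07 ± 0.27, adjusted p = 0.00491), Nr4a3 (0.61), Egr3 (0.60 ± 0.13, adjusted p = 0.0017), Sik1 (0.46), Arc (0.46 ± 0.13, adjusted p = 0.01) and Fosl2 (0.44). The other 3 that rose were Csrnp1 (0.36), Homer1 (0.34 ± 0.07, adjusted p = 0.00156) and Ier2 (0.24). Of these 9, Npas4, Egr3, Arc and Csrnp1 passed in each of the 15 fits that left out 1 library, Homer1 in 14, Fosl2 and Sik1 in 13, Nr4a3 in 12 and Ier2 in 4 (adjusted p up to 0.187 by limma). Thus 9 of the 28 genes passed with a positive slope, where 36.7% of all 16000 genes did, and 4 passed with a negative slope, where 9.6% of all genes did. The median slope was 0.20 over the 28 genes and 0.19 over all genes. Nr4a1, Fosb and Zfp36 were among the 15 that did not pass.

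Read by read, Fos had 597 reads of 1318958 in naïve 1 and 1585 reads of 7451180 in naïve 5, so its reads differed by 2.65 times where the libraries differed by 5.65 times. Over the same pair Egr3 went the other way, with 70 reads in naïve 1 and 894 in naïve 5, a ratio of 12.8. In order of depth, the 5 libraries with the most reads, sham 3, sham 4, sham 5, sham 1 and naïve 5, held the 5 lowest Fos values of the 15, between 223 and 295 CPM. Naïve 1, naïve 4 and naïve 3, the 3 with the fewest reads, held the 3 highest, between 472 and 596 CPM. Every SCI library was of middle depth, with 2994495 to 4376819 reads, and had a middle Fos value.

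**Figure D3:**
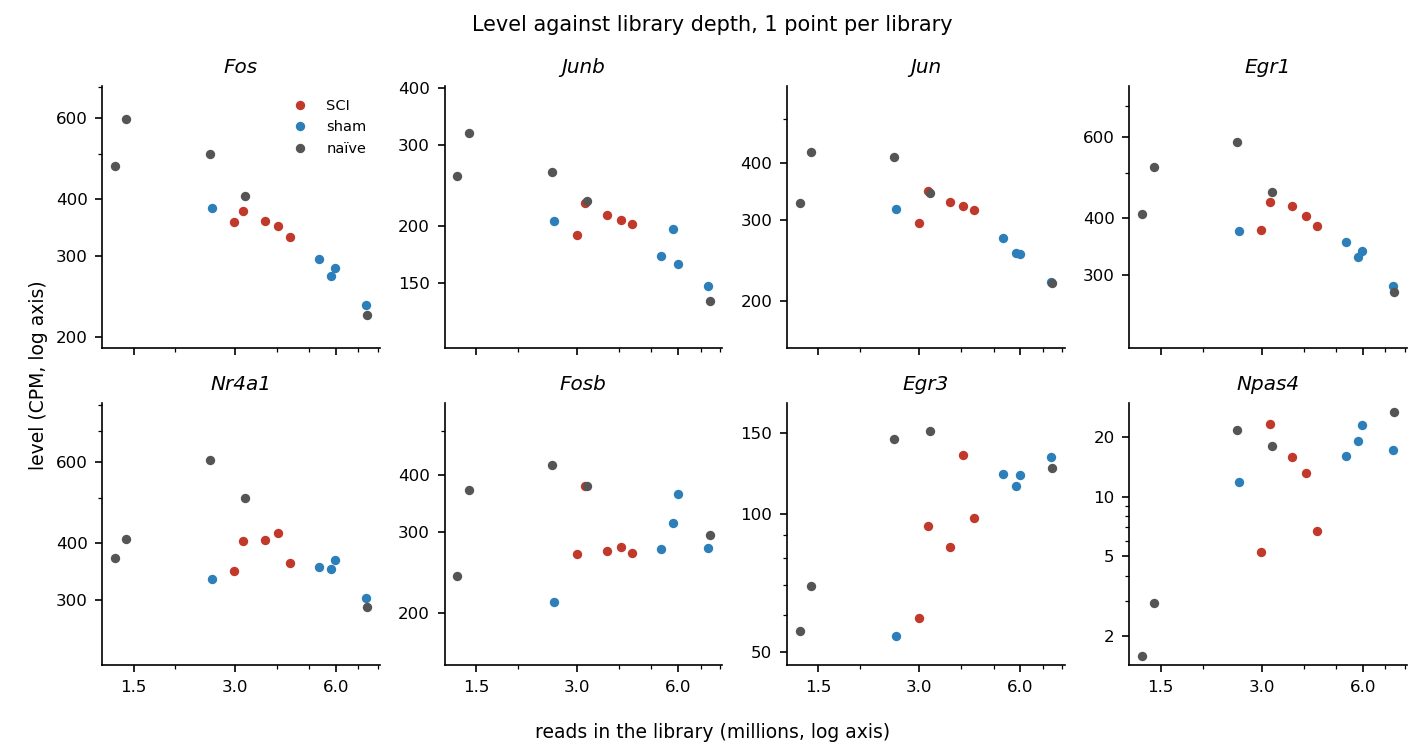
Level in CPM (log axis) against reads in the library (log axis) for 8 genes, 1 point per library (SCI red, sham blue, naïve grey). Taken over all libraries together, Fos, Junb, Jun and Egr1 run downward to the right, but not all of them do so within each group. SCI 5, with the fewest reads of the SCI libraries, has the lowest Jun, Junb and Egr1 of its group. Nr4a1 and Fosb show no slope past the threshold. Egr3 and Npas4 run upward, with 2 and 4 reads of Npas4 in the 2 shallowest libraries.

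The scale of the values bears on these slopes. With median-ratio scaling the median slope over all genes was 0.05 in place of 0.19, and 2 genes of the family passed with a positive slope (Egr3 and Npas4) and 7 with a negative one (Fos, Junb, Jun, Egr1, Zfp36, Gadd45g and Dusp1). The slope of Fos was -0.61 under that scaling. By edgeR 2 of the family passed with a positive slope and 7 with a negative one, and by DESeq2 3 and 8. Of all genes that passed, 79.3% had a positive slope as reported. That share was 37.2% with median-ratio scaling, 51.6% with TMM, 46.5% with quantile normalization, 30.1% by edgeR and 27.8% by DESeq2. The shares of 36.7% and 9.6% given for all genes therefore hold for the CPM scale only. The 4 negative slopes kept their sign under every alternative run, and Fos and Junb passed under each. With quantile normalization Egr1 (-0.07, adjusted p = 0.545) and Jun (-0.15, adjusted p = 0.0919 by limma) did not. Nor did they without naïve 5 (-0.06 and -0.15, adjusted p = 0.625 and 0.139 by limma). With naïve 1 and naïve 4, the 2 shallowest, left out, the slope of Npas4 was 0.31 and did not pass (adjusted p = 0.393 by limma), and that of Fos was -0.55. When the reads of every library were thinned at random to 1318933, the slopes of Fos and Npas4 were -0.48 and 1.09.

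The direction of the slope went with how densely reads covered a gene. Fos had a mean of 0.533 reads per exonic base and reached 0.701 in sham 1, Nr4a1 reached 0.61, Jun 0.489, Junb 0.474 and Egr1 0.444. Across all genes of at least 200 exonic bases, none exceeded 1 read per base in any library except 2 genes in sham 4, and the highest value in the other 14 libraries was that of mt-Cytb, at 0.635 to 0.92. The median slope over all genes was 0.33 for those with 0.01 to 0.02 reads per base, 0.11 at 0.05 to 0.1, -0.07 at 0.1 to 0.2, -0.32 at 0.2 to 0.4 and -0.61 for the 61 genes above 0.4. Fos and Nr4a1 are among those 61, with slopes of -0.46 and -0.09, both above the bin's median. Jun, Junb, Egr1 and Gadd45g lie in the bin of 0.2 to 0.4, which holds 512 genes, of which 459 fell and 0 rose with depth past the threshold.

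Not every gene of the family followed its bin. Egr3 (0.0995 reads per base) and Arc (0.105) rose by 0.60 and 0.46 per doubling, in a range of coverage where the medians were 0.11 and -0.07. Npas4 (0.0159 reads per base) rose by 1.07, where the median was 0.33. How duplicate reads were treated is not given in the sources used here. If each exonic base can start only 1 counted read, n reads on L bases stand for -L ln(1 - n/L) fragments, and with reads rescaled in that way the slopes were -0.28 for Fos (adjusted p = 0.00485 by limma), -0.28 for Junb, -0.18 for Jun and -0.16 for Egr1, the last of which did not pass (adjusted p = 0.125 by limma). This rescaling was chosen after the values were seen, and the part of read coverage in the slopes was not tested beyond it.

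**Figure D4:**
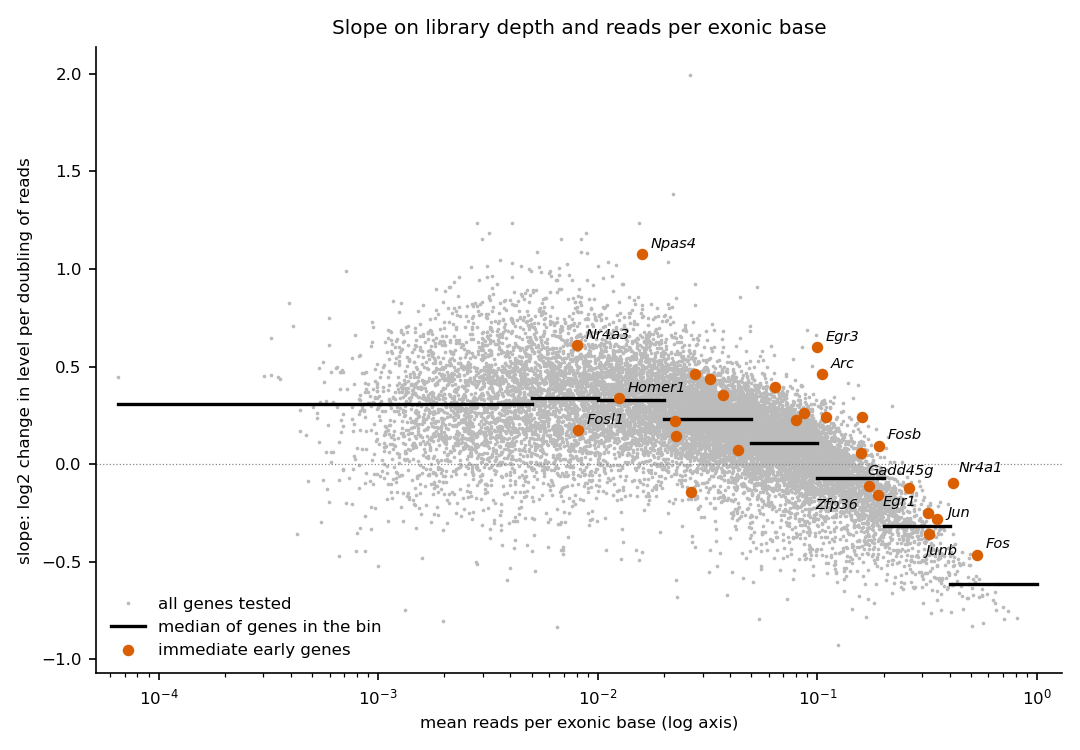
Slope on library depth (log2 change in CPM for each doubling of reads) against the mean reads per exonic base (log axis). Grey points are all genes tested with at least 200 exonic bases, black bars the median of each bin of genes, and orange points the 28 immediate early genes; Fos, Junb, Jun and Egr1 lie at the right with negative slopes, Npas4, Nr4a3, Egr3 and Arc lie above the medians of their bins.

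At a given group and depth, Egr1, Jun, Nr4a1, Zfp36, Egr3 and Nr4a2 were associated with Fos across mice, 6 of the 27 genes tested. The coefficient, fitted by limma with group and log2 depth as terms, is the log2 change of a gene for each log2 unit of Fos, and all genes were measured in the same libraries as Fos. It was above 0 for 23 of the 27 genes, with a median of 1.12 against 0.00 over all 15999 genes. The 6 that passed were Egr1 (1.36 ± 0.15, adjusted p = 0.00194), Jun (1.10 ± 0.14, adjusted p = 0.00351), Nr4a1 (1.51 ± 0.25, adjusted p = 0.0135), Zfp36 (1.27 ± 0.22, adjusted p = 0.0174), Egr3 (2.04 ± 0.40, adjusted p = 0.0342) and Nr4a2 (2.68 ± 0.56, adjusted p = 0.0429; ± SE, limma). Among all genes 0.631% passed with a positive coefficient and 0.1% with a negative one, and 0 of the 27 passed with a negative one. Fosb (1.45 ± 0.34, adjusted p = 0.0621) and Junb (0.87 ± 0.20, adjusted p = 0.0602) lay just outside the threshold by limma. Fosl1 had the lowest coefficient (-1.82 ± 0.79, adjusted p = 0.24 by limma), on 2 to 38 reads a library.

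These associations were less firm than the counts alone convey. The association of Egr1 passed in each of the 15 fits that left out 1 library, that of Jun in 14, Nr4a1 and Zfp36 in 13, Egr3 in 9 and Nr4a2 in 5. Without naïve 3, the mouse with the highest Nr4a1 and Egr1, 1 gene passed (Egr1), and without naïve 5, 2 did (Egr1 and Jun). With reads thinned to 1318933 in every library only Egr1 passed, and with the replicate number as a block none did (0 of all genes). Without depth as a term the direction turned for much of the family: 10 of the 27 coefficients were above 0 in place of 23, with a median of -0.24 in place of 1.12. Egr1, Jun, Junb and Zfp36 then passed with a positive coefficient and Homer1 with a negative one (-0.64), and Egr3 and Nr4a2 were at -0.76 and -0.29 and did not pass. With Jun in place of Fos, 4 genes passed, namely Fos, Nr4a1, Egr1 and Zfp36.

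**Figure D5:**
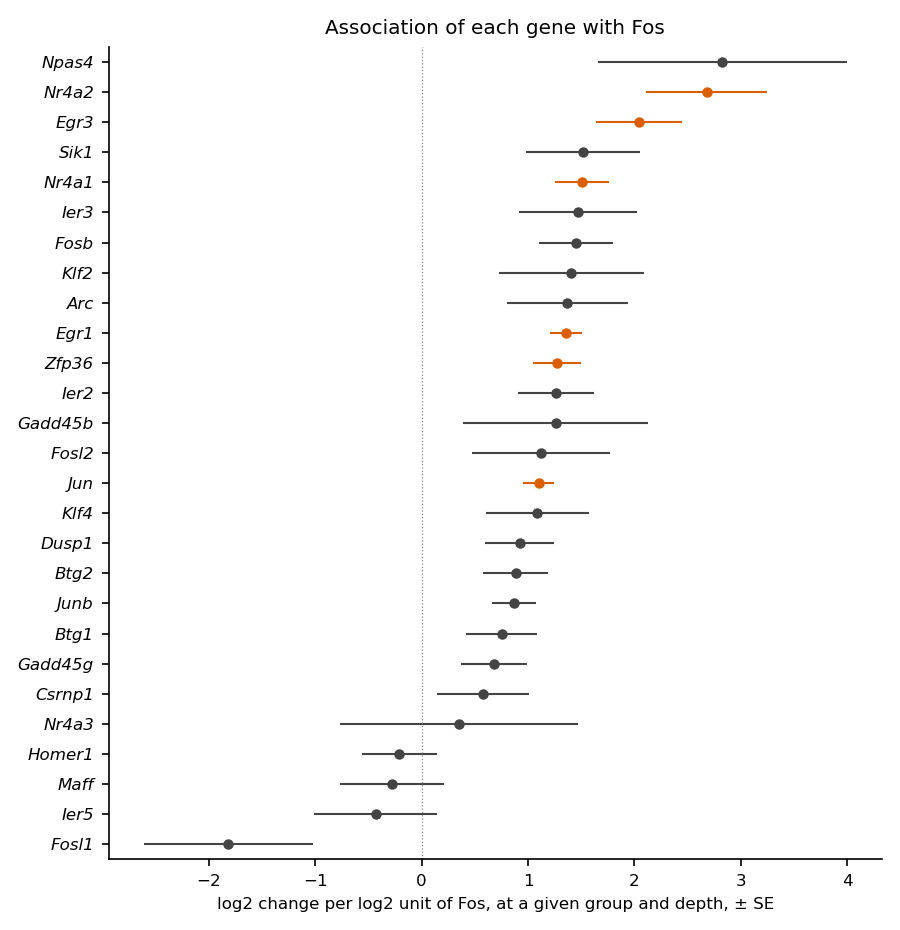
Coefficient (± SE, limma) of each of the 27 other genes on Fos, the log2 change for each log2 unit of Fos at a given group and depth, sorted from high to low. The 6 orange points passed at an adjusted p under 0.05 (Nr4a2, Egr3, Nr4a1, Egr1, Zfp36 and Jun), 23 of the 27 coefficients lie above 0 and Fosl1 is lowest.

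The promoter windows of Fos and of 3 genes that varied with it are shown to place the motifs of the factors named above. They are the 250 bases before the RefSeq start on GRCm38.p6, written 5′ to 3′ on the gene's strand, for Fos at chr12:85473640-85473889 (plus strand), Nr4a1 at chr15:101266596-101266845 (plus strand), Nr4a2 at chr2:57124004-57124253 (minus strand) and Zfp36 at chr7:28379229-28379478 (minus strand). The RefSeq start of Nr4a1 lies inside the span given above, which covers every transcript of the gene. Capitals mark matches on either strand to TGACG, the core of the CREB site, to the EGR site GCGGGGGCG and to the CArG box bound by SRF.
Fos: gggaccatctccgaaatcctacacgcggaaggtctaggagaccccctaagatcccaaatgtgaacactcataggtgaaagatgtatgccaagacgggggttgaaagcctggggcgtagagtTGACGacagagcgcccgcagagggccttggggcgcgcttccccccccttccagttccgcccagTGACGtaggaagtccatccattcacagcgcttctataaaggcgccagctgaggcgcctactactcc
Nr4a1: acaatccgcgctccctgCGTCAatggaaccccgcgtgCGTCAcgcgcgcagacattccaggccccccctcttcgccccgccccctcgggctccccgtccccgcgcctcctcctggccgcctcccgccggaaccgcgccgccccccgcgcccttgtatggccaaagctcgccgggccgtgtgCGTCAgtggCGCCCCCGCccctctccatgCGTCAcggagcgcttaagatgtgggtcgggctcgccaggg
Nr4a2: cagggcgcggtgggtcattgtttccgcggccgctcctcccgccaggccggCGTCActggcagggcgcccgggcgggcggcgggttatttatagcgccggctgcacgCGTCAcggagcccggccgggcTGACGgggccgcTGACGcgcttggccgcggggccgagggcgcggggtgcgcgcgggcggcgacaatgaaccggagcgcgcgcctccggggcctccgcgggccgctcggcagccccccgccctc
Zfp36: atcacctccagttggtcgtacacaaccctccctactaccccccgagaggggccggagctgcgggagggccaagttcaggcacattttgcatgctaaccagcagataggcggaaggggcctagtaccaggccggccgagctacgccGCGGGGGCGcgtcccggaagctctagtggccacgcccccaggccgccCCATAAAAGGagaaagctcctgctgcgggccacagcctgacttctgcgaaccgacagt

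Fos had 2 matches to TGACG, Nr4a1 and Nr4a2 4 each and Junb 1, while the window of Jun had none of the motifs searched. Zfp36 had no TGACG but an EGR site and, 49 to 58 bases before the start, the only CArG box among the family's windows, and Nr4a1 also had an EGR site. Of the 31 genes, 25 had a window in the RefSeq table (all but Arc, Ier2, Egr1, Fosl1, Egr3 and Sik1), and a gene with several windows counts once. The 25 genes had 31 windows, and a gene counts if any of its windows matched, while each percentage here is over single windows. The 2 shares are therefore not like for like. TGACG was in 16 of the 25, against 17.8% of all 32851 windows. The full CRE TGACGTCA, which contains TGACG, was in 3 of 25 (Btg2, Dusp1 and Maff; 1.55% of all windows), GCGGGGGCG was in 7 of 25 (2.57%), the AP-1 site TGANTCA in 1 (Csrnp1; 6.75%) and the CArG box in 1 (1.47%). A match says only that these letters are in this window, and promoters beyond it were not searched.

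Genes of the same pathways that are not among the 31 were counted from lists that were fixed for this work. Of 32 further activity genes tested, 9 rose and 7 fell with depth, where 36.7% and 9.6% of all genes did. They were led by Scg2 (-0.64 ± 0.04, adjusted p = 2.52e-09), a secretory granule protein, and by Nrn1 (-0.44 ± 0.05, adjusted p = 2.60e-06 by limma), a neurite growth protein. In association with Fos 1 of the 32 passed, the kinase gene Plk2 (2.15 ± 0.26, adjusted p = 0.00216 by limma), and in the 3 comparisons of groups none did. Bdnf, a growth factor of sensory neurons, had a log2 difference of 0.46 ± 0.13, adjusted p = 0.898 between SCI and naïve mice and of 0.36 ± 0.13, adjusted p = 0.897 between SCI and sham mice (limma). Of 32 other stress and dissociation genes, 3 passed with Fos, namely Socs3 (1.57 ± 0.19, adjusted p = 0.00216), a cytokine feedback gene, Zfp36l1 (2.26 ± 0.39, adjusted p = 0.0155), a relative of Zfp36, and Nfkbiz (2.41 ± 0.51, adjusted p = 0.0437 by limma), a nuclear regulator of NF-kB. Atf3, the classical marker of axon injury, had a log2 difference of 0.53 ± 0.17, adjusted p = 0.897 between SCI and sham mice (limma), which did not pass.

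Heat shock chaperones, which digestion at 37 °C can also raise, fell with depth in 11 of 17 cases and rose in none. Over all genes 9.6% fell and 36.7% rose. Hspa8 was at -0.69 ± 0.03, adjusted p = 2.46e-10 and Hsp90ab1 at -0.69 ± 0.04, adjusted p = 3.42e-10 (limma). Of the 17 chaperones, 11 had a mean above 100 CPM, and the part of abundance and read coverage in their slopes was not tested. The stress-inducible pair Hspa1a (1.72 ± 0.28, adjusted p = 0.0128) and Hspa1b (1.48 ± 0.26, adjusted p = 0.0156) passed with Fos by limma, and since these genes are near-identical copies their reads may have been divided between them. Of the 12 MAP kinase phosphatases and Sprouty family genes, which end the signal upstream of Fos, 4 rose with depth and none passed with Fos. The smallest p of that list in a group comparison was that of Spry4 between SCI and sham mice (-0.73 ± 0.14, adjusted p = 0.623 by limma). Of 29 upstream kinases and factors tested, 14 rose and 6 fell with depth, and none passed with Fos, Creb1 being nearest (1.24 ± 0.30, adjusted p = 0.065 by limma).

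Markers of other cells were set beside these results. In association with Fos, 2 of 7 Schwann cell markers passed, Prx (1.41 ± 0.27, adjusted p = 0.0322) and Ncmap (1.72 ± 0.38, adjusted p = 0.0497 by limma), and none of the markers of nociceptors (10), large myelinated neurons (6), satellite glia (8), macrophages (12) or fibroblasts (7) did; of 8 endothelial and mural markers 1 did, the smooth muscle actin gene Acta2 (3.26 ± 0.47, adjusted p = 0.00875 by limma). The summed Schwann cell markers ranged over 1343 to 1506 CPM in SCI, 1028 to 1512 in sham and 1049 to 2241 in naïve mice. The summed satellite glia markers ranged over 2257 to 2738 CPM in SCI, 1794 to 2778 in sham and 1721 to 4053 in naïve mice. Like Fos, 5 of the 8 satellite glia markers and 8 of the 10 nociceptor markers fell with depth, where 9.6% of all genes did (limma). Of the 7 Schwann cell markers, 3 fell and 1 rose. Means were above 100 CPM for 7 of the 8 satellite glia and 10 of the 10 nociceptor markers. The part of abundance and read coverage in the slopes of these markers was not tested. The part of these cells in the levels of the immediate early genes was not tested.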

How the data were processed

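RNA of sorted DRG neurons from 5 SCI, 5 sham and 5 naïve mice was sequenced as single-end 75 nt reads (25 to 30 M per sample per the labels). The authors aligned reads to mm10 with HISAT2 and counted them with HTSeq (versions and annotation not given in the sources used here). The deposited signal values are headed RPKM. In each library every value was a whole multiple of 1 step, with 0 values off by more than 1e-06, so whole reads were recovered and the values, which are not divided by length, are called CPM; the divisor covers most but not all genes. The authors' group means were not used. Lines with a number for a name (27) and repeats of a symbol (97) were left out, and number-named lines held up to 0.21% of a library's reads.

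The 16000 genes whose mean reached 1 CPM were tested on log2(CPM + 1) with limma 3.58.1 in R 4.3.3 over all 15 libraries, with Benjamini-Hochberg adjustment over all of them and a threshold of 0.05; the pseudocount of 1 understates changes of low genes. Lengths came from GENCODE (GRCm38). Alternatives were pseudocounts of 0.1 and 5, no filter, a filter at a mean of 10, 3 other scalings, edgeR 4.0.16 and DESeq2 1.42.0 on recovered reads, the replicate number as a block, depth as a term, only the 2 groups compared, each library left out, the 2 shallowest left out, and thinned reads. The fits were also run on simulated counts with known changes. Those counts held no slope tied to read coverage, and the term in place of Fos had no error. The simulation therefore does not test either point in these data. Each library is 1 mouse, so p-values measure the spread between mice. The genes, lists and tests were chosen with earlier results of these data known. Values by library are given for 8 core genes, for genes with an unadjusted p under 0.05 in a group comparison, for up to 6 genes with the smallest p for depth and for Fos, and for the genes with the highest and lowest levels.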

Additional observations from a re-analysis of the deposited data

Results flagged for a closer look

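In 6 of the 84 groups of 5 libraries examined (28 genes in 3 groups), 1 library stood apart from the other 4 by Dixon's criterion at 95%, a flag that chance gives in about 1 of 20 groups. Fosb had 379 CPM in SCI 3, where the other 4 SCI mice had 269 to 278 CPM. Nr4a3 had 26.0 CPM in SCI 2, on 109 reads, where the other 4 had 7.92 to 9.56 CPM. Dusp1 had 182 CPM in sham 4, where the other 4 had 128 to 141 CPM. Egr3 had 54.1 CPM in sham 2, where the other 4 had 115 to 133 CPM, and in the same library Homer1 had 28.1 CPM, where the other 4 had 40.6 to 43.8 CPM. Homer1 had 51.0 CPM in naïve 5, where the other 4 had 26.9 to 32.2 CPM. Sham 2 had the fewest reads of its group (2563330) and naïve 5 the most of its own (7451180), and Homer1 and Egr3 were among the genes that rose with depth; the part of depth in these flags was not tested.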

How the results depend on the processing

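In the comparisons of groups, no alternative called a gene of the family when SCI mice were compared with sham or with naïve mice; DESeq2 called 4 of all genes between SCI and sham mice. Between sham and naïve mice DESeq2 called 5 of the 6 genes and 233 of the 1111 genes to which it gave an adjusted p, and leaving out 1 library gave 0 to 6 of the 28 and 0 to 1752 of all genes, the upper values without naïve 5. With depth, 13 of the 28 and 7415 of all genes passed; quantile normalization gave 5 and 3439. The count over all genes was 4258 with median-ratio scaling, 4742 with TMM, 3457 by edgeR, 3738 by DESeq2, 4080 without the 2 shallowest libraries and 4603 with thinned reads. With Fos, 6 of 27 and 117 of all genes passed; thinned reads gave 1 and 4, and leaving out 1 library gave 1 to 8 and 3 to 589. The count over all genes was 201 and 56 with pseudocounts of 0.1 and 5, 37 with no filter, 43 with median-ratio scaling, 37 with TMM, 206 with quantile normalization, 774 without the 2 shallowest libraries, 25 with Jun in place of Fos and 4461 without depth as a term, where 10 of the 27 coefficients were above 0 in place of 23, their median was -0.24 in place of 1.12, and Egr3 (-0.76) and Nr4a2 (-0.29) were among those that reversed. The cause of these shifts was not tested. With the replicate number as a block, 0 of the 27 and 0 of all genes passed with Fos, 14 of the 28 passed with depth and none between groups. The numbers pair no mice in the labels, and the deviations of same-numbered mice correlated at -0.35 to 0.34 over 15 pairs, 3 of them above 0.1. Egr4, Jund and Dusp2, on 17 to 37 reads in all, were tested only with no filter, where none passed the adjusted threshold.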

Other observations

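Outside the lists, the 10 genes with the smallest p for a positive association with Fos by limma were Nod1, Dmpk, Bhlhe40, Fmnl3, Otogl, Gm15475, Tob2, Wtip, Gm43481 and Tinagl1. Nod1, a sensor of bacterial peptidoglycan, had the smallest p (1.92 ± 0.26, adjusted p = 0.00541), and Bhlhe40, a transcriptional repressor of the circadian clock, had 2.02 ± 0.31 (adjusted p = 0.0121). Tob2, an antiproliferative gene of the Btg family, had 1.70 ± 0.27 (adjusted p = 0.0128 by limma). The 10 with the smallest p for a negative association were Pqlc3, Jmjd4, Cndp2, Phf20, Htr5a, Oprk1, Acsl1, Prdm8, Ankrd42 and Pcdha9, among them the kappa opioid receptor gene Oprk1 (-3.58 ± 0.74, adjusted p = 0.0402) and the serotonin receptor gene Htr5a (-2.31 ± 0.47, adjusted p = 0.0361 by limma). None of these passed with the replicate number as a block, where the count over all genes was 0.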
